A study of Mus musculus with 6 samples.

Results

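The genes described here encode 10 secreted proteins grouped here as antagonists of Wnt signalling: Sfrp1, Sfrp2, Sfrp4, Frzb, Wif1, Dkk1, Dkk2, Dkk3, Notum and Sostdc1. They were chosen by name, as a family of function, though with earlier results of these data known. All 10 were found among the 23170 genes of the authors' table. The RNA sequenced was that of subchondral bone in the mandibular condyle, the head of the lower jaw in the temporomandibular joint, of wild type mice. The labels give 3 libraries of a sham operation and 3 of a partial discectomy, in which part of the joint's disc is removed. Surgery was on 1 side and the operated joint was sampled. The age label, P6w+PO2w, is shared by both groups and reads as 6 weeks and then 2 weeks, with prefixes that are not spelled out. Sham libraries carry the letters Rctrl in their description and the others LPD. These letters are not explained, and whatever else they stand for cannot be told apart from the operation. Nothing in the labels tells whether libraries of 1 group stem from different mice, so their spread may be partly technical. A number precedes the letters, and 1 sham library and 1 of partial discectomy share the number 6. Whether this marks 1 animal is not said.

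Wnt proteins are lipid-bearing signals that bind Frizzled receptors together with the co-receptors Lrp5 and Lrp6, which keeps beta-catenin from being degraded. In bone this pathway drives osteoblast formation, and in cartilage both too much and too little of it harm the joint. Its secreted antagonists act at separate steps. The secreted Frizzled-related proteins (Sfrp1, Sfrp2, Sfrp4 and Frzb) and Wif1 bind Wnt ligands, Notum is an enzyme that removes the lipid the ligands need, and Dkk1, Dkk2 and Sostdc1 bind the co-receptors. Several antagonists, Notum and Dkk1 among them, are themselves switched on by beta-catenin and so close a feedback loop.

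None of the 10 antagonists passed the threshold between partial discectomy and sham, an adjusted p under 0.05 in the authors' deposited table. The share of all genes that passed it there was 2.38%, or 2.28% higher and 0.104% lower. The family did not share a direction: 4 members had a ratio of the partial discectomy mean to the sham mean above 1 and 6 had one below 1 in the authors' deposited table. Wif1, Dkk1 and Notum had the highest ratios, 1.86, 1.76 and 1.69, and Sfrp2 and Sfrp4 the lowest, 0.341 and 0.558, per the authors' deposited table. Adjusted p-values of the members ran from 0.220 for Sfrp4 to 0.981 for Frzb in the authors' deposited table. The looser limit of an unadjusted p under 0.05 was met by 3 members, Sfrp4 (0.0177) and Dkk2 (0.0297) with lower means and Notum (0.0449) with a higher one, in the authors' deposited table. Over all genes 14.2% passed that looser limit, 10.9% higher and 3.31% lower. The median log2 ratio of the 10 members was -0.20, beside 0.08 over all genes.

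The levels are normalized expression values, and no unit is named for them in the authors' deposited table. A mean of 1 is the lowest found, which is taken here as an offset and called the floor. Levels are compared between the groups of a gene. Across genes they are only summed within marker lists, where the genes with the highest values weigh most. The analysed file gives group means and no value per library. It also gives, for each gene, the highest value, the total and the geometric mean over the 6 libraries. These figures limit what the single libraries can have been: for every one of the 23170 genes at least 1 set of 6 values met all of them, and for 15376 genes they place the highest library in 1 group. Among the antagonists the highest library was placed for 7, in partial discectomy for 4 and in sham for 3. Below, the lowest, middle and highest library of a group are given as the ranges over all sets of 6 values that meet these figures. They are bounds worked out from the authors' deposited table, not measurements, and carry no test. They rest on the reading that its columns summarise the same 6 values, and that no library lies under the floor.

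By these bounds the groups lay apart for 1 antagonist, Dkk2, overlapped for 6 (Sfrp1, Sfrp2, Frzb, Dkk1, Dkk3 and Sostdc1), and could do either for 3 (Sfrp4, Wif1 and Notum). Over all genes the groups lay apart in 13.7% and overlapped in 61.6%. The 552 genes that passed the adjusted threshold all had groups that lay apart. The count of 1 in 10 is near that background and is not a result about the family.

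**Figure D1:**
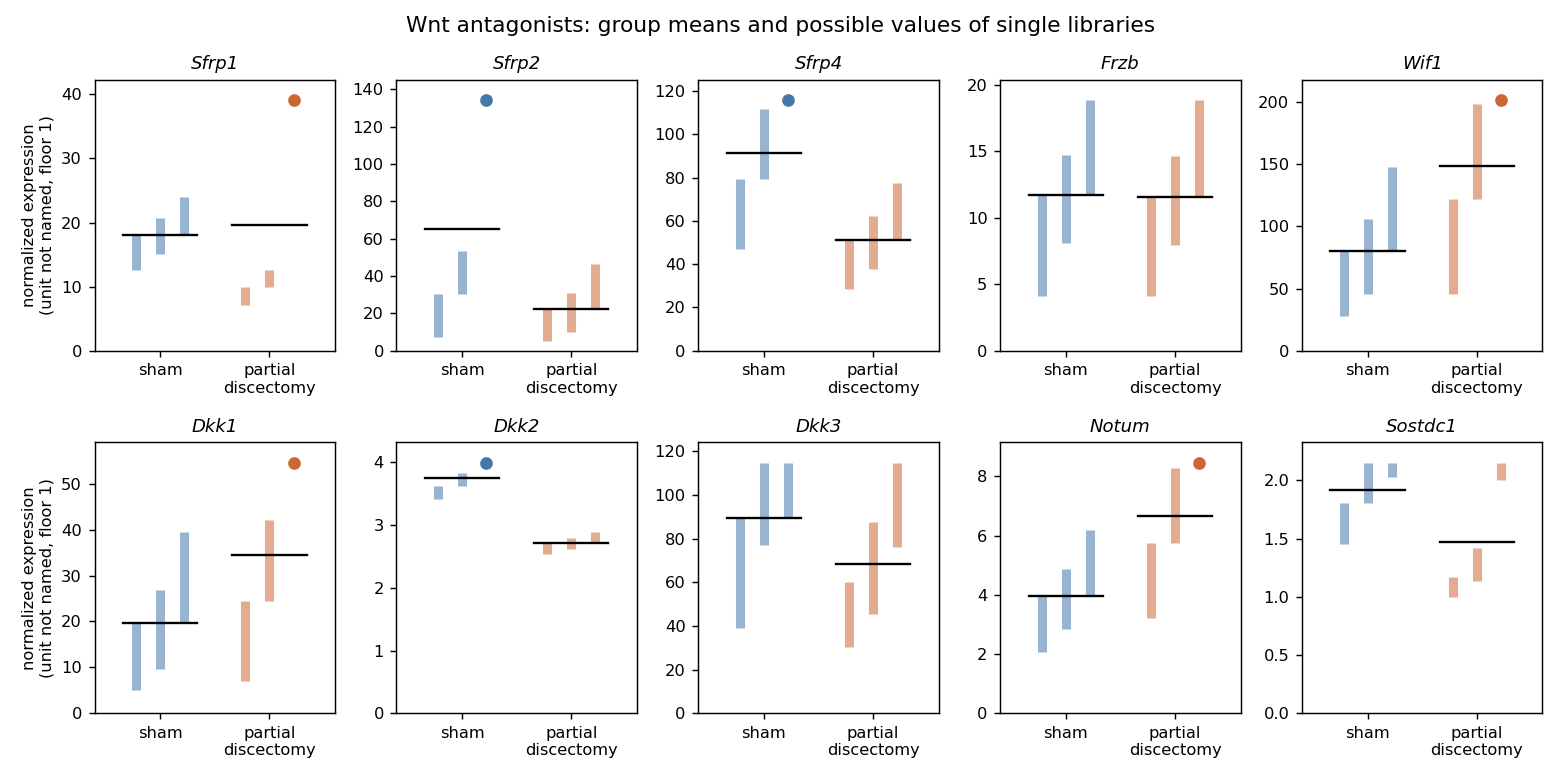
Normalized expression of each antagonist (vertical axis, own scale from 0, unit not named) in sham (blue) and partial discectomy (orange). Black lines are the group means, dots the highest library where its group is known, and bars the range within which the lowest, middle and highest library of a group of 3 must lie, joined over both placements for Frzb, Dkk3 and Sostdc1. Dkk2 is the gene whose groups lie apart, and Sfrp1 and Sfrp2 each have 1 library far above the rest, at 39.2 and 134.

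The genes lie on 9 chromosomes, with Sfrp2 and Dkk2 both on chromosome 3, and span 3803 to 95013 bases in GENCODE M21, an annotation of the mm10 build. Their main coding transcripts have 2 to 11 exons. No other annotated gene overlaps 8 of them. Sfrp2 (chromosome 3, 83766321 to 83774316) overlaps the antisense gene Gm26771, whose means were 1.07 after partial discectomy and 1.21 in sham in the authors' deposited table. Notum (chromosome 11, 120653788 to 120661175) overlaps the antisense genes Notumos, at 1.44 and 1.32 in the authors' deposited table, and Myadml2os. Whether the counting used strand is not given in the sources used here, so reads of these pairs may be mixed.

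Promoter windows of 5 members, from 250 bases before to 50 bases after the start, were found in RefSeq on GRCm38.p6. Shown are 4, in the direction of transcription: Dkk2, whose libraries lay apart, Sfrp2, whose ratio was farthest from 1, and Wif1 and Dkk1, with the highest ratios. Capitals mark a match to CTTTGAA, a form of the site bound by the TCF and LEF factors of the Wnt pathway, searched on both strands, or to TATAAA, searched on the gene's strand. The windows are chr3:132085042-132085341 on the plus strand for Dkk2, chr3:83766071-83766370 on the plus strand for Sfrp2, chr10:121033754-121034053 on the plus strand for Wif1 and chr19:30549447-30549746 on the minus strand for Dkk1.
Dkk2: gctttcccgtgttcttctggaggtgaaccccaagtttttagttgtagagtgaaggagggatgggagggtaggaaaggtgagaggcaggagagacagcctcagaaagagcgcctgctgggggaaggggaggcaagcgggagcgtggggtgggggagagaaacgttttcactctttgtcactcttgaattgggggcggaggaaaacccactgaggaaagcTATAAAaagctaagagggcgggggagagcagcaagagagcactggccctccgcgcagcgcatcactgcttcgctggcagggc
Sfrp2: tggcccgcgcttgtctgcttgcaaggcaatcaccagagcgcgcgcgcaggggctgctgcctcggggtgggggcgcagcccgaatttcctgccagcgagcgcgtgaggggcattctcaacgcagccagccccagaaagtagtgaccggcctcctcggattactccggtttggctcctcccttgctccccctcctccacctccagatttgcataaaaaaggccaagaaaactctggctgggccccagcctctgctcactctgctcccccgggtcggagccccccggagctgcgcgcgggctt
Wif1: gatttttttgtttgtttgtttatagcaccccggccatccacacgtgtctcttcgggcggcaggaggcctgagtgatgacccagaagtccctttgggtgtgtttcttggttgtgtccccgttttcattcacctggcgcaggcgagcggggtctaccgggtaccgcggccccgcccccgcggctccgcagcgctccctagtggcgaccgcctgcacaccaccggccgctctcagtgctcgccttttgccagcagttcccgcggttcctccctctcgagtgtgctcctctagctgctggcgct
Dkk1: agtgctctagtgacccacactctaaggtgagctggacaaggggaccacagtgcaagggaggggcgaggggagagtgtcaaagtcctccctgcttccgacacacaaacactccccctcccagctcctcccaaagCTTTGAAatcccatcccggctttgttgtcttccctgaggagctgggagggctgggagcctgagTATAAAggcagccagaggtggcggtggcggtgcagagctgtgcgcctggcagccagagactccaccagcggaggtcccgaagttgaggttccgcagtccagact
Dkk1 was the only one of the 5 with CTTTGAA, which began 117 bases before the RefSeq start and which 5.14% of all 32851 windows hold on either strand. The related letters CTTTGAT, in 3.73% of all windows, and GACCACCCA, a site of the Gli factors of Hedgehog signalling in 0.253% of all windows, were in none of the 5. TATAAA stood 54 bases before the start in Dkk1 and 32 bases before it in Dkk2, and in 8.32% of all windows. The GENCODE starts of Dkk1 (30549665) and Wif1 (121033960) lie upstream of the RefSeq starts used here. CTTTGAA and TATAAA of Dkk1 therefore fall inside the gene as GENCODE draws it. For Sfrp2 and Dkk2 the starts are the same. The windows of Sfrp2 and Wif1 are richer in G and C, at 66% and 63.0%, than those of Dkk1 (60.7%) and Dkk2 (57.7%), against a median of 52.7% over all windows. Wif1 and Sfrp2 hold 25 and 22 CpG pairs, Dkk2 and Dkk1 11 and 9, and the median window 7. These matches describe the letters of the window and nothing more.

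Among the antagonists that bind Wnt ligands, Sfrp2 had the ratio farthest from 1. Mean Sfrp2 was 65.1 in sham and 22.2 after partial discectomy. Per the authors' deposited table its ratio was 0.341, with 95% limits from 0.104 to 1.12 and an adjusted p of 0.507. Its highest library, at 134, was a sham library and made up 68.8% of the sham total. The other sham libraries averaged 30.4, one of them between 7.44 and 30.4 and the other between 30.4 and 53.4. After partial discectomy the lowest library was between 4.94 and 22.2, the middle between 10.1 and 30.8 and the highest between 22.2 and 46.5. The groups of Sfrp2 thus overlapped, with 1 sham library far above all others. Without that library the ratio was 0.730 in place of 0.341. The sham SD of Sfrp2 lay between 60.0 and 64.3 over 3 libraries, about as large as the sham mean.

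Sfrp4, which binds Wnt ligands and whose loss in humans and mice thins the outer shell of long bones, had means of 91.5 in sham and 51.0 after partial discectomy. Per the authors' deposited table its ratio was 0.558 (0.341 to 0.912) and its adjusted p was 0.220. The 3 sham libraries were at 46.8 to 79.2, 79.2 to 112 and 116. After partial discectomy they were at 28.5 to 51.0, 37.8 to 62.3 and 51.0 to 77.5. The middle and the highest sham library were therefore above all libraries of partial discectomy, while the lowest sham library may lie among them or above. Leaving out the highest library of Sfrp4 gave a ratio of 0.644. No other antagonist had a lower adjusted p, and Sfrp4 did not pass the threshold.

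Sfrp1, a Wnt-binding antagonist that lowers bone formation in mice, had nearly equal means, 18.0 in sham and 19.6 after partial discectomy. Per the authors' deposited table the ratio was 1.09 (0.511 to 2.32) and the adjusted p was 0.907. The group of partial discectomy was uneven. A single library of partial discectomy stood at 39.2 and made up 66.5% of its group total. The other libraries of partial discectomy were at 7.21 to 9.87 and 9.87 to 12.5. In sham they were at 12.7 to 18.0, 15.1 to 20.7 and 18.0 to 24.0. So 1 library of partial discectomy lay above every sham library and the others lay below every sham library. This arrangement, singled out after the values were seen, is certain for 154 genes, 0.665% of all, counting those where the high library is a sham library. Without the highest library the ratio of Sfrp1 was 0.547, in the opposite direction.

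Frzb, also known as Sfrp3 and made by cartilage cells, had means of 11.7 in sham and 11.6 after partial discectomy. Per the authors' deposited table the ratio was 0.989 (0.497 to 1.97) and the adjusted p was 0.981. Its highest library, at 18.9, could belong to either group, and the groups overlapped in both cases. With the highest library in sham, the other sham libraries were at 4.10 to 8.12 and 8.12 to 12.1, and with it in partial discectomy the others there were at 4.09 to 7.93 and 7.93 to 11.8. Without that library the ratio of Frzb would be 1.43 in the first case and 0.678 in the second. The 95% limits of Frzb leave room for a change of nearly 2-fold either way, so equal levels are not shown.

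Wif1, which binds Wnt ligands through a domain of its own and is made by osteoblasts and cartilage cells, had means of 79.8 in sham and 149 after partial discectomy. Limits from 0.886 to 3.91 around the ratio 1.86, and an adjusted p of 0.405, stand in the authors' deposited table. The libraries of partial discectomy were at 45.7 to 122, 122 to 198 and 202, and those of sham at 27.6 to 79.8, 45.8 to 106 and 79.8 to 148. The middle library of partial discectomy was above the lowest and the middle library of sham. Whether the groups of Wif1 overlapped cannot be told from these figures. Without the highest library its ratio was 1.53.

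Notum, the esterase that strips Wnt ligands of their lipid, had means of 3.95 in sham and 6.66 after partial discectomy. By the authors' deposited table the ratio was 1.69 (0.995 to 2.86) and the adjusted p was 0.335. Its unadjusted p of 0.0449 and its limits, which include equal means, fall on different sides in the authors' deposited table. The libraries of partial discectomy were at 3.22 to 5.76, 5.76 to 8.29 and 8.47, and those of sham at 2.08 to 3.95, 2.84 to 4.88 and 3.95 to 6.18. At least the highest library of partial discectomy lay above all sham libraries. With the floor removed from both means the ratio of Notum was 1.92, and without the highest library, floor kept, it was 1.46.

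Of the antagonists that act on the co-receptors, Dkk1, which binds Lrp5 and Lrp6 and limits bone mass in mice, had means of 19.6 in sham and 34.6 after partial discectomy. With limits from 0.702 to 4.43, the ratio was 1.76 and the adjusted p 0.514 by the authors' deposited table. A library of partial discectomy at 54.6 made up 52.6% of that group's total. The others there were at 7.02 to 24.6 and 24.6 to 42.1, and sham was at 5.12 to 19.6, 9.67 to 26.9 and 19.6 to 39.5. The groups overlapped, and without the library at 54.6 the ratio of Dkk1 was 1.25.

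Dkk2, a relative of Dkk1 that can inhibit or activate the pathway depending on the cell, was low and evenly spread. Its means were 3.74 in sham and 2.71 after partial discectomy. From the authors' deposited table the ratio was 0.723 (0.544 to 0.961) and the adjusted p was 0.277. Sham libraries were at 3.41 to 3.62, 3.62 to 3.82 and 3.99. After partial discectomy they were at 2.53 to 2.71, 2.62 to 2.80 and 2.71 to 2.89. Every sham library of Dkk2 was above every library of partial discectomy, as holds for 3.33% of all genes in that direction. The SD was between 0.215 and 0.297 in sham and at most 0.154 after partial discectomy, over 3 libraries each. With the floor removed the ratio of Dkk2 was 0.623, and without the highest library, floor kept, it was 0.748.

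Dkk3, the most distant member of the Dickkopf family, had means of 89.6 in sham and 68.6 after partial discectomy. From the authors' deposited table the ratio was 0.765 (0.430 to 1.36) and the adjusted p was 0.546. The highest library, at 115, could lie in either group. If it was a library of partial discectomy, the others there were at 33.9 to 45.5 and 45.5 to 57.0, below every sham library. If it was a sham library, the groups overlapped with the lowest sham library at 39.2 to 77.0. Sostdc1, a relative of sclerostin that binds Lrp co-receptors and also BMPs, was near the floor, with means of 1.92 in sham and 1.48 after partial discectomy. From the authors' deposited table its ratio was 0.768 (0.517 to 1.14) and its adjusted p was 0.507. With the floor removed the ratio of Sostdc1 was 0.517, from 0.476 after partial discectomy and 0.921 in sham.

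**Figure D2:**
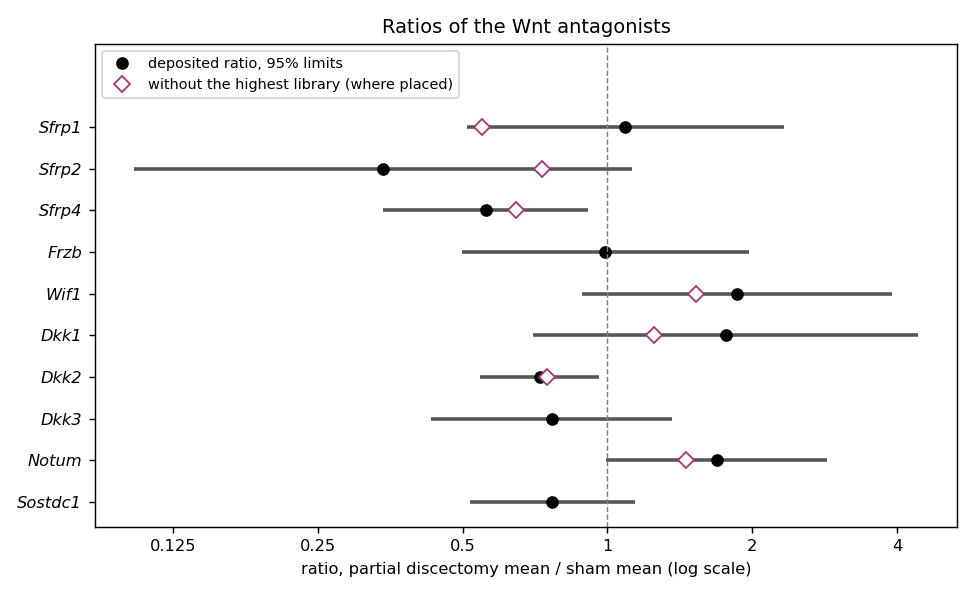
Ratio of the partial discectomy mean to the sham mean for each antagonist on a log axis, with the deposited 95% limits (lines) and, as open diamonds, the ratio without the highest library for the 7 genes where its group is known. The diamonds of Sfrp1 (0.547) and Sfrp2 (0.730) lie farthest from their deposited ratios of 1.09 and 0.341. The limits of Sfrp4 and Dkk2 do not reach 1, as holds for 14.7% of all genes.

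Marker genes of blood cells had larger fold differences than any antagonist in the same comparison. Of 8 neutrophil and 6 erythroid marker genes, 6 and 6 passed the threshold, all higher after partial discectomy, in the authors' deposited table. Their values above the floor summed to 1256 after partial discectomy and 96.5 in sham for neutrophils, and to 221 and 11.2 for the erythroid list. In bulk bone, fewer cells of a type and less RNA per cell cannot be told apart. The defining genes of bone were present: the values above the floor of 7 osteoblast markers summed to 57366 after partial discectomy and 45328 in sham. Most of that came from Col1a1, at 34180 and 27783, and Col1a2, at 20060 and 15384, in the authors' deposited table. Runx2 alone had a ratio below 1, at 0.877, and none of the 7 passed the threshold. Markers of salivary and other epithelium were close to the floor, with sums of 2.45 and 2.59 over 4 genes.

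Beside the 3 antagonists with the highest ratios, osteocyte markers also had higher means. All 4 of that list in the table had ratios above 1 and none passed the threshold, and their values above the floor summed to 941 after partial discectomy and 524 in sham. Sost, which encodes the Wnt antagonist sclerostin and marks osteocytes, had the ratio 1.73 (0.562 to 5.33) and the adjusted p 0.545 by the authors' deposited table. For Dmp1, Sost and Mepe the highest library was one of partial discectomy, so leaving it out lowers the ratio by construction. Without it the ratio went from 1.81 to 1.39 for Dmp1, from 1.73 to 1.16 for Sost and from 2.36 to 1.44 for Mepe. For Phex the highest library was not placed. Beside Sfrp2 and Sfrp4, the summed values above the floor were 911 after partial discectomy and 988 in sham for 6 fibroblast markers, 239 and 292 for 4 markers of the joint's surface and lining, and 94.8 and 134 for 6 skeletal muscle markers. The lower sums of the last 2 lists rest in part on 1 sham library per gene: without it the ratio went from 0.608 to 1.76 for Prg4, from 0.682 to 1.32 for Acta1, from 0.774 to 1.54 for Ckm and from 0.709 to 1.28 for Tnnt3. Tendon and fibrous markers summed to 1848 and 1491, with most of it from Fmod, at 1776 and 1310 in the authors' deposited table. Without its highest library, one of partial discectomy, the ratio of Fmod went from 1.36 to 0.786, the opposite direction. By the authors' deposited table Thbs4 of that list had the ratio 0.368 (0.201 to 0.673) with an adjusted p of 0.139, and Kera 0.345 (0.170 to 0.699) with an adjusted p of 0.156. Without their highest library, a sham library for each gene, these ratios were 0.563 and 0.513. Among 7 chondrocyte markers 4 ratios were above 1, with sums of 5846 and 4860. Of the fibroblast markers Pi16 and Dpp4 were called higher, at 3.08-fold and 2.24-fold in the authors' deposited table. The ratios of the other 4 were below 1 there: 0.881 for Cd34, 0.806 for Pdgfra, 0.944 for Dcn and 0.312 for Clec3b (unadjusted p 0.0246). Of 4 nerve sheath markers Mbp was called higher, at 2.49-fold in the authors' deposited table. The part of these cells in the values of the antagonists was not tested.

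The rest of the Wnt pathway was examined through 7 lists with 84 genes, of which 71 were in the table. The authors' deposited table called 1 of them, the ligand Wnt10b, which was lower after partial discectomy (adjusted p = 0.0436). The unadjusted p was under 0.05 for 3 genes with a higher and 9 with a lower mean, beside 10.9% and 3.31% over all genes, and the median log2 ratio was -0.07. By the bounds on single libraries the groups lay apart for 7 of the 71 genes, 6 of them lower, beside 13.7% of all genes and 3.33% in the lower direction.

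Ligands: of 12 Wnt genes in the table, 5 had an unadjusted p under 0.05, each with a lower mean after partial discectomy, beside 3.31% lower and 14.2% in either direction over all genes, and the list's median log2 ratio was -0.26. Besides Wnt10b (9.33 and 17.9, ratio 0.522) these were Wnt5a, which signals mostly without beta-catenin (10.6 and 15.5, ratio 0.679), and, closer to the floor, Wnt9a (2.27 and 4.98), Wnt7b (1.79 and 3.90) and Wnt16 (1.36 and 2.08), in the authors' deposited table. The groups lay apart for Wnt10b, Wnt5a, Wnt7b and Wnt9a. For Wnt4 the ratio was 1.45 (0.650 to 3.25) by the authors' deposited table. Of 15 receptors and co-receptors 1 had an unadjusted p under 0.05, Ror2, a receptor of Wnt5a, whose ratio was 0.537 (0.353 to 0.816) and adjusted p 0.150 by the authors' deposited table. By the authors' deposited table the ratio was 1.15 (0.790 to 1.66) for Lrp5 and 0.868 (0.637 to 1.18) for Lrp6, the co-receptors that Dkk1 binds, and 0.983 for the receptor Ryk.

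Other inhibitors outside the cell or at the membrane gave no call among 12 genes in the table. Igfbp4, which binds insulin-like growth factors and has been found to block Lrp6 and Frizzled, had means of 76.5 in sham and 129 after partial discectomy, and its groups lay apart. Its ratio was 1.69 (1.24 to 2.30) and its adjusted p 0.0933 by the authors' deposited table. Kremen1, a receptor that works with Dkk1 to remove Lrp6 from the cell surface, had the ratio 0.640 (0.418 to 0.980) with an adjusted p of 0.364, and Lrp4, which presents sclerostin, 1.50 (0.831 to 2.71), by the authors' deposited table. Of the R-spondins, which strengthen Wnt signals, Rspo3 had the ratio 2.05 (1.18 to 3.56) with an adjusted p of 0.158, and Rspo1, near the floor, 0.654 with an adjusted p of 0.270, by the authors' deposited table. For their receptors Lgr4 and Lgr6 the ratios were 1.11 and 0.944 by the authors' deposited table.

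Wnt secretion and carrier genes included 1 with an unadjusted p under 0.05, the glypican Gpc3, at 5.40 in sham and 2.53 after partial discectomy (ratio 0.469, adjusted p = 0.0676) by the authors' deposited table, and its groups lay apart. Wls, which carries Wnt ligands to the cell surface, had the ratio 0.838 by the authors' deposited table, beside 0.926 for Gpc4 and 1.19 for Gpc6. None of 13 genes of the beta-catenin pathway inside the cell had an unadjusted p under 0.05, and Ctnnb1 itself, which encodes beta-catenin, had the ratio 1.09 (0.662 to 1.80) by the authors' deposited table. For Apc and Csnk1a1, which help to degrade it, the ratios were 0.975 and 1.16 by the authors' deposited table.

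Of 7 feedback targets of beta-catenin in the table, none was called and 2 had ratios above 1, with a median log2 ratio of -0.14. The unadjusted p was under 0.05 for 1 gene with a higher mean, Lef1, and 1 with a lower mean, Axin2. Over all genes these shares were 10.9% and 3.31%. Axin2, the most used readout of the pathway, had means of 20.8 in sham and 11.0 after partial discectomy. By the authors' deposited table its ratio was 0.530 (0.318 to 0.882) and its adjusted p 0.306. Its groups lay apart, with the highest sham library at 34.1, and without that library its ratio was 0.777. Lef1, a target that is also a factor of the pathway and is made by lymphoid cells, had means of 7.97 in sham and 14.6 after partial discectomy. Its ratio was 1.83 (1.17 to 2.88) and its adjusted p 0.181 by the authors' deposited table. By the authors' deposited table the ratio was 0.953 for Tcf7, 0.892 for Ccnd1 and 1.06 for Myc. Notum and Dkk1, which are also targets, had ratios above 1 while that of Axin2 was below 1, and none of the 3 passed the threshold.

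**Figure D3:**
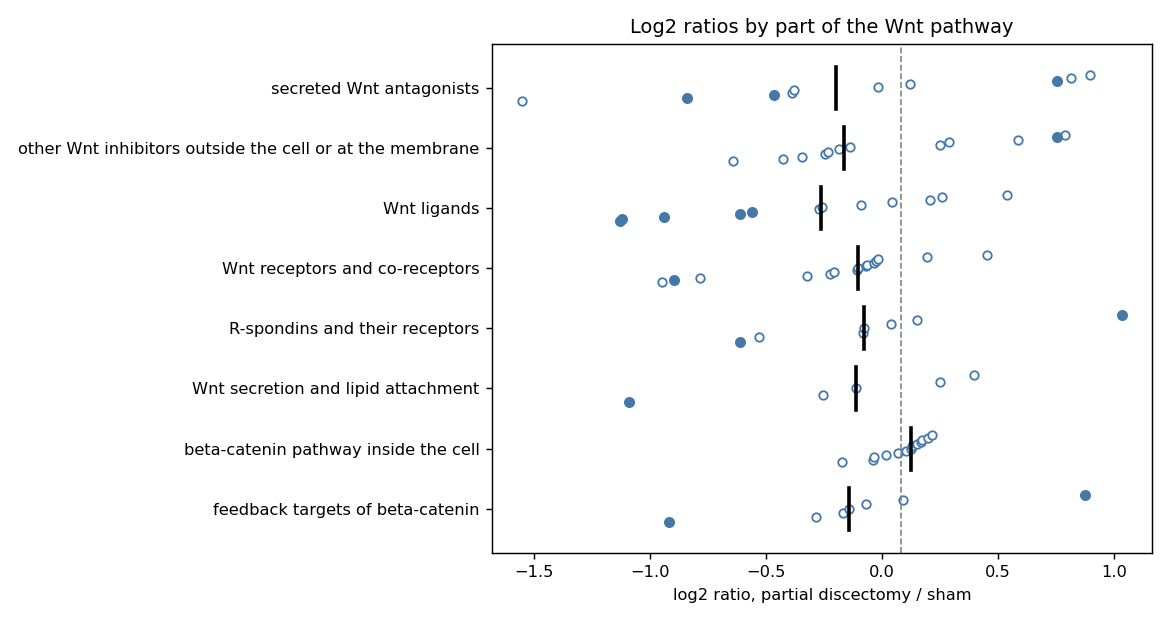
Log2 ratio of partial discectomy to sham (horizontal axis) of each gene by its part of the Wnt pathway. Filled points have an unadjusted p under 0.05 in the authors' deposited table, black bars are list medians, and the dashed line is the median of all genes, 0.08. The antagonists spread from -1.55 (Sfrp2) to 0.90 (Wif1), and the 5 filled points of the ligands all lie below 0.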

How the data were processed

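RNA sequencing of 6 libraries, 3 sham and 3 partial discectomy, was analysed through 1 table by the authors. STAR 2.6.1d and the build mm10 were used, per the submitters' processing notes. How reads were counted, filtered and normalized, and which model was fitted, is not given in the sources used here. The deposited table holds group means, totals, highest values and geometric means of a normalized signal, of unnamed unit, with no library totals, so the depth is unknown. Per the file headers the authors also computed the ratio of group means, its log2 value, and p-values. The authors' fold change with its 95% limits, so named per the file headers, is signed (a ratio under 1 is written as minus its inverse) and is treated as a score. The second file held gene positions and no measurement, and was not used.

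A count test had been planned for the case that counts per library were given. They were not, so the deposited statistics of the authors were used, as planned for that case. The deposited adjusted p-value equalled the Benjamini-Hochberg adjustment over all 23170 genes to within 1e-06, and the total equalled 3 times the summed group means. Genes were called at an adjusted p under 0.05. Ranges for single libraries were solved with Python 3.11.15 and numpy 2.4.6 from the group means, the highest value and the geometric mean, with no value under the floor of 1, and the solver was tested on simulated data. The stop position in the table lies 1 base past the GENCODE end for all 10 members, and the GENCODE end is printed. Named genes are all members, and of each Wnt list those with an unadjusted p under 0.05 and the 3 with the highest mean. Marker genes are named in list order, with exceptions that were chosen after their values were seen. These are Thbs4, Kera, Fmod, Mbp, Col1a1, Col1a2, the lining, muscle, fibroblast and osteocyte markers, and Sost among the Wnt inhibitors. The members, lists and rules were chosen with earlier results of these data known. Alternatives were other gene filters, the unadjusted p, the 95% limits, removal of the floor, recentring and leaving out the highest library.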

Additional observations from a re-analysis of the deposited data

How the results depend on the processing

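The count of 0 antagonists past the deposited adjusted p stayed at 0 when p-values were adjusted again among 15911 genes whose mean exceeds the floor by 1 or more, among 10286 that exceed it by 5 or more, and without the neutrophil and erythroid markers (the first filter leaves out Sostdc1, the second also Dkk2 and Notum). At an unadjusted p under 0.05 there were 3, and by the 95% limits 2, Sfrp4 and Dkk2. Over all genes these limits were met by 14.2% and 14.7%, so neither count is a result about the family. All genes called went from 552 to 243 with the filter of 5, which tests fewer genes, and 1 gene of the Wnt lists, Wnt10b, was called under each filter. The log2 ratio of Sfrp1, 0.12, turned to -0.87 without its highest library, and why that library was high was not tested. Set against the summed values of the groups (log2 ratio 0.13) it turned to -0.0097, by construction, since 0.12 is the smaller. The log2 ratio of Sostdc1 went from -0.38 to -0.95 with the floor removed, by construction, since Sostdc1 lies near the floor. Leaving out the highest library lowers the mean of its own group by construction, so the direction of each shift is fixed beforehand. It turned none of the other 6 members where the highest library is placed. For Frzb, Dkk3 and Sostdc1 it is not placed: without it the ratio of Frzb, 0.989, would be 1.43 or 0.678, while those of Dkk3 (0.507 to 0.891) and Sostdc1 (0.592 to 0.818) stay under 1 either way. Floor removal and recentring turned no other member. Placing the highest library with the geometric mean, trying both placements, and readjusting all genes and Wnt lists without blood markers, were chosen after seeing the data. No paired analysis was possible because the table holds no value per library, and for the same reason no replicate was left out by its label and DESeq2 was not run. Depth is unknown, so no detection limit is given, and no cell type was separated in these bulk values.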
